A study of Mus musculus with 11 samples.

Results

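The genes of sterol and fatty acid synthesis, which are targets or regulators of the sterol regulatory element binding proteins (SREBPs), were followed in RNA from mouse pancreatic islets. They were chosen by gene symbol, and 32 of the 55536 genes in the count tables belong to the set. Of these, 17 encode enzymes of the mevalonate and sterol pathway, 5 encode SREBP regulators or a sterol carrier, and 10 encode enzymes of fatty acid synthesis, elongation and desaturation. All 32 passed the filter on low counts in every comparison.

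Islets were isolated from female wild type C57BL/6J mice, and poly(A) RNA was sequenced as 11 bulk libraries. Mating of the multipara mice began when they were 9 weeks old and led to 3 pregnancies in a row, and their islets were taken 3 weeks after the last delivery. Age-matched virgin littermates served as controls. In each parity group 1 set of mice was injected for 3 days with S-961, a peptide antagonist of the insulin receptor, and another received no treatment, which gave 3 virgin S-961, 4 multipara S-961, 2 virgin untreated and 2 multipara untreated libraries. S-961 acts on the whole animal, and the labels do not say whether a library is 1 animal or a pool, so that the p-values measure the spread between these samples. Total counts ran from 22028507 to 32234146 per library, and the 32 genes took 0.163% to 0.296% of them. The questions were how these genes differ with S-961, how they differ between multipara and virgin islets, and whether the sterol and the fatty acid branch move together.

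SREBPs are membrane-bound transcription factors of the endoplasmic reticulum. When sterols are low, the escort protein SCAP carries them to the Golgi, where proteases release the active part, and when sterols are high, INSIG proteins hold the complex back. The form encoded by *Srebf2* mainly drives the cholesterol pathway, while *Srebf1* mainly drives fatty acid synthesis and is a well-known target of insulin and liver X receptor signalling. In β cells, lipid synthesis shares citrate and NADPH with glucose metabolism, and cholesterol in membranes and granules is known to affect insulin secretion.

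Promoter windows of 300 bases, from 250 bases before to 50 bases after each start site, were read from RefSeq (build GRCm38.p6) and were found for 25 of the 32 genes. *Fdps*, *Fdft1*, *Sqle*, *Stard4*, *Scd1*, *Scd2* and *Fads1* had no window and were not searched. The windows were searched on both strands for the sterol regulatory element TCACNCCAC, the E-box CACGTG, the NF-Y box CCAAT and the GC box GGGCGG. A gene with more than 1 window was counted if any of them matched. The NF-Y box was present for 14 of 14 sterol enzymes with a window, for 3 of 4 regulators and for 4 of 7 fatty acid genes, against 42.2% of the 12518 tested genes that had a window. By window it was in 14 of 17, 4 of 7 and 4 of 8 in the same order, against 37.2% of the windows of tested genes. The NF-Y matches of *Dhcr7*, *Me1* and *Acacb* lay only in windows at start sites inside the annotated gene. The GC box was present for 13 of 14 sterol enzymes and for 3 of 7 fatty acid genes, against 64.1% of tested genes. The E-box was found in windows of *Dhcr7*, *Hsd17b7*, *Sc5d*, *Insig1* and *Scap*, which is 20% of the genes with a window against 10.96% of tested genes. The exact sterol regulatory element was found for *Hmgcs1* alone, against 1.39% of tested genes. A match is a description of the letters and does not show that a factor was bound.

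The 250 bases upstream of the start site are given for 5 genes that had a window and that the results turn on. *Hmgcs1*, *Lss* and *Hsd17b7* were higher with S-961, *Mvk* was lower with S-961 in the same islets, and *Fads2* had the widest difference between the parity groups under S-961. Each sequence is written 5′ to 3′ on the strand of the gene, and capitals mark the sterol regulatory element, the E-box and the NF-Y box, which reads ATTGG on the opposite strand. They lie at chr13:119690101-119690350 (plus strand) for *Hmgcs1*, chr10:76531355-76531604 (plus) for *Lss*, chr1:169969206-169969455 (minus) for *Hsd17b7*, chr5:114444019-114444268 (plus) for *Mvk* and chr19:10101504-10101753 (minus) for *Fads2*.
Hmgcs1: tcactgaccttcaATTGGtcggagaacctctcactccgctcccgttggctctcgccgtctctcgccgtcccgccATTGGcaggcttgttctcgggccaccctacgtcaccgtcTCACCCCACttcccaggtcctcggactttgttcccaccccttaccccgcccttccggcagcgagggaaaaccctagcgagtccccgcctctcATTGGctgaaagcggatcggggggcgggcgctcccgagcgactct
Lss: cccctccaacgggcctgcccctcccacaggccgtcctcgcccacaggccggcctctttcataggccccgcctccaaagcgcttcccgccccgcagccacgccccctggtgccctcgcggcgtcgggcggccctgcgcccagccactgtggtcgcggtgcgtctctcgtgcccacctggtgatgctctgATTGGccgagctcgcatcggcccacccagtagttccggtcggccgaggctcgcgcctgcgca
Hsd17b7: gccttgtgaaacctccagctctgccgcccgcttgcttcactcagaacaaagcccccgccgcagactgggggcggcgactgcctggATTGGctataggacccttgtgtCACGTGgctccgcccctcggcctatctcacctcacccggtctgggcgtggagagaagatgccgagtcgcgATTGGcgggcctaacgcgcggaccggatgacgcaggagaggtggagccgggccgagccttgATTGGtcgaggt
Mvk: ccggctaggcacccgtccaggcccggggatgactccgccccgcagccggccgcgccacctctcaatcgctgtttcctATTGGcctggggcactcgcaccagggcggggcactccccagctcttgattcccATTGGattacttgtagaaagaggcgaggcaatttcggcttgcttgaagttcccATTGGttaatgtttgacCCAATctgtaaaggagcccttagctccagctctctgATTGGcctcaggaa
Fads2: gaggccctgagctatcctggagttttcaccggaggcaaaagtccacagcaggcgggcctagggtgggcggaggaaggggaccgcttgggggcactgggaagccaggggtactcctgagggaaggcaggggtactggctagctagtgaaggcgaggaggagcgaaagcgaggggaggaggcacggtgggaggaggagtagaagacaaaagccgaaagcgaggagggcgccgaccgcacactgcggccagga
The NF-Y box occurred in the windows of *Hmgcs1*, *Lss* and *Hsd17b7* and in that of *Mvk*, so that these letters were shared by genes that differed in opposite directions with S-961. The window of *Fads2* held none of the 3 motifs that are in capitals.

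Levels are given as CPM, which are read counts scaled to the size of the library and normalised over all 11 libraries. Per kilobase of exon, the highest mean level over the 11 libraries was that of *Acly*, which makes cytosolic acetyl-CoA from citrate, at 193 CPM per kilobase. *Insig1*, *Sqle* and *Scd2* followed at 27.3, 19.2 and 17.9 CPM per kilobase. *Acacb*, an acetyl-CoA carboxylase bound to mitochondria, was lowest at 0.226 CPM per kilobase, and *Hsd17b7* was next at 0.787. Over the 11 libraries, the highest level was 15.1 times the lowest for *Scd1* and 6.07 times for *Fads2*, while for *Scap* it was 1.28 times. *Acacb*, *Hsd17b7* and *Scd1* had the lowest counts of the set, and for *Scd1*, *Fdps*, *Fdft1*, *Tm7sf2*, *Acaca*, *Scap* and others some estimated counts were not whole, which means that reads shared with other genes were divided.

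**Figure D1:**
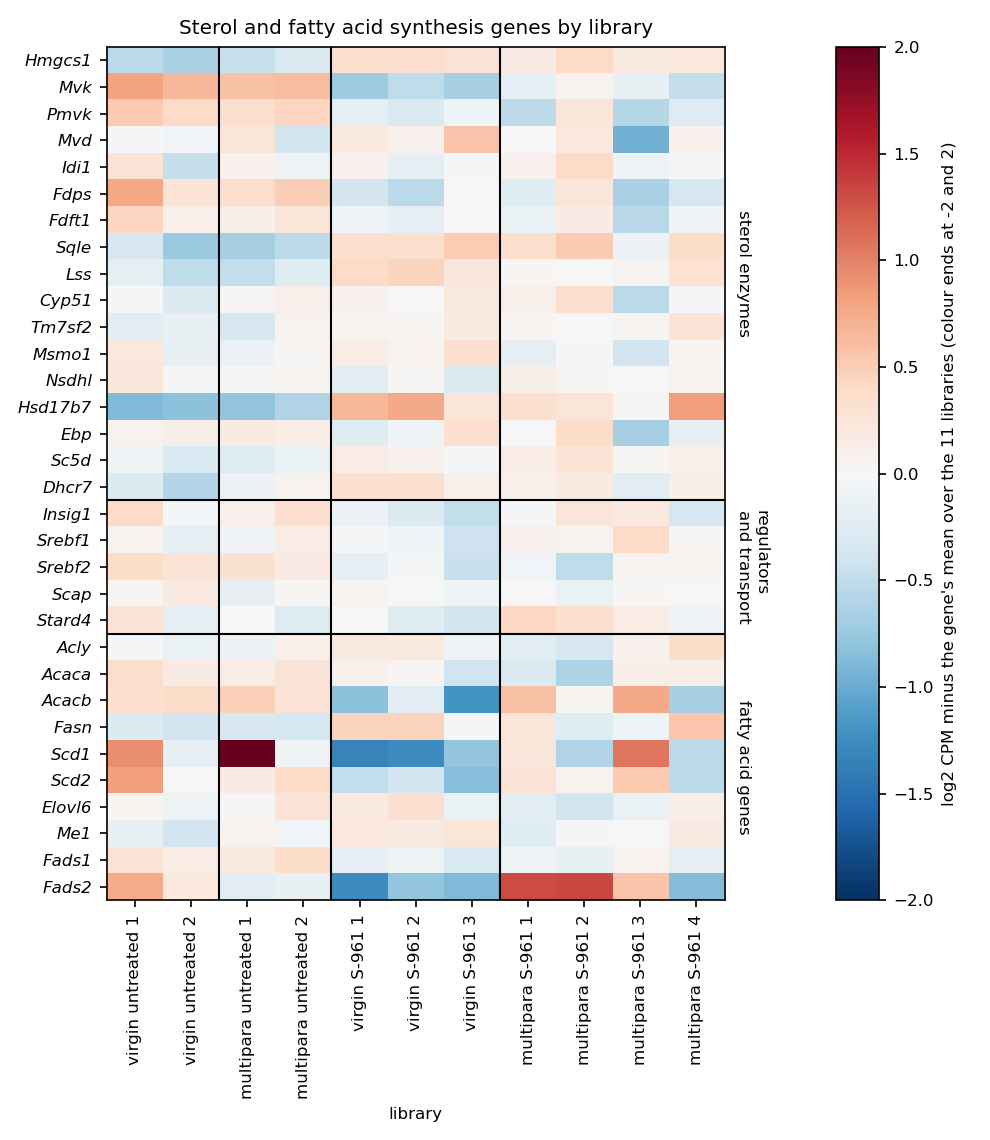
Heat map of the 32 genes (vertical axis, in pathway order and by class) in the 11 libraries (horizontal axis, by group), where colour gives log2 CPM minus the gene's mean over the 11 libraries and ends at -2 and 2. *Hmgcs1*, *Sqle*, *Lss* and *Hsd17b7* are above their means in the virgin S-961 libraries and below them in the 4 untreated libraries, *Mvk* shows the reverse, and *Fads2* is high in multipara S-961 1, 2 and 3 and low in multipara S-961 4.

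Multipara S-961 4 lay nearer to every virgin S-961 library than to any library of its own group. By a chi-square comparison of counts, multipara S-961 4 was at 9.77, 11.8 and 45.6 per gene from virgin S-961 1, 2 and 3, and at 58.2, 80.3 and 95.9 from multipara S-961 1, 2 and 3. For 24 of the 32 genes (75%) its level was nearer to the virgin S-961 mean than to the mean of the other multipara S-961 libraries, and the share over all genes tested was 68.2%. In distance to its own group, multipara S-961 4 was not the extreme. Distances of 64.7, 127 and 95.9 per gene separated multipara S-961 3 from multipara S-961 1, 2 and 4. Among virgin islets, the same measure gave 58.7 and 64.5 between S-961 library 3 and libraries 1 and 2, which were 9.41 apart. Differences between the parity groups under S-961 are given with and without multipara S-961 4, and S-961 calls in multipara islets that changed without it are named. This library was singled out in these same data for its nearness to the virgin S-961 libraries. Leaving it out therefore tends to widen the parity difference, and a call made only without it is not read as support for one. The question of labels is wider than this library. S-961 is known to drive β cells into the cell cycle, and *Mki67*, a marker of cycling cells, was at 93.9, 65.5 and 43.5 CPM in multipara S-961 1, 2 and 3, against 3.43, 13.9 and 3.04 CPM in virgin S-961 1 to 3 and 3.93 CPM in multipara S-961 4. It was at 6.54 and 3.51 CPM in virgin untreated and 38.6 and 2.14 CPM in multipara untreated 1 and 2. Virgin S-961 1 and 3 were below both virgin untreated libraries and virgin S-961 2 was above them, while the 3 highest values of all were in the S-961 group labelled multipara. Whether the parity labels of the 7 S-961 libraries are right was not tested. The direction of every parity difference under S-961, the interaction and the division of the S-961 response by parity rest on these labels.

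The make-up of the islets also moved with the groups. *Ins1* and *Ins2* took 35.3% to 41.4% of counts in untreated and 13.2% to 20.7% in S-961 libraries, and *Ucn3*, a marker of mature β cells, was at 689 to 812 against 278 to 406 CPM. Other β cell markers went the other way, with *Mafa* at 183 to 269 CPM in untreated and 328 to 796 CPM in S-961 libraries, *Nkx6-1* at 144 to 203 against 253 to 363 CPM and *G6pc2* at 1543 to 2200 against 2596 to 7994 CPM. The sum of 9 β cell markers, 456705 to 614504 CPM in untreated and 122863 to 234029 CPM in S-961 libraries, is mostly *Ins1*, *Ins2* and *Iapp* and does not stand for the list. The 10 acinar markers summed to 71.5 to 149 CPM in untreated, 1594 to 6262 in virgin S-961 and 4089 to 11383 in multipara S-961 libraries, where multipara S-961 4 had the lowest sum and the other 3, from 7772, were above all virgin S-961 libraries. Under S-961 the parity groups did not overlap in the sum of 6 stromal markers (64.1 to 69.2 CPM in virgin, 127 to 278 in multipara libraries) or in that of 5 α cell markers (14150 to 15641 against 16409 to 24352 CPM), with multipara S-961 4 the lowest of its group in both. The 10 markers of proliferating cells summed to 334, 305 and 152 CPM in multipara S-961 1, 2 and 3 and 14.2 in multipara S-961 4, against 12.0 to 31.6 in virgin S-961, 12.98 to 18.8 in virgin untreated, and 101 and 7.56 in multipara untreated 1 and 2. In bulk islets, fewer cells of a type and less RNA per cell cannot be told apart, and the part of these markers in the results below was not tested.

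With S-961, islets of both parity groups had higher levels of the early sterol enzyme *Hmgcs1* and of *Sqle* and *Lss*, which turn squalene into lanosterol. The mevalonate kinases between them (*Mvk*, *Pmvk*) were lower. So was *Acat2*, a gene outside the set that makes acetoacetyl-CoA for the pathway, by 1.09 in virgin and 0.74 in multipara islets (log2). Of the 32 genes, 13 passed the threshold of an adjusted p under 0.05 (edgeR) in virgin islets, 6 higher and 7 lower, which is 40.6% of the set, where 36.5% of all 17996 genes tested passed (18.8% higher, 17.6% lower). In multipara islets 8 of 32 passed, 5 higher and 3 lower, or 25% against 37.6% of all genes (18.2% higher, 19.4% lower). The share in virgin islets was near the background and that in multipara islets was below it, and neither number of calls is read as a result about these genes. The median log2 fold change of the 32 genes was -0.09 in virgin and -0.03 in multipara islets, beside -0.04 and 0.03 over all genes. The S-961 and untreated groups did not overlap for 71.9% of the 32 genes in virgin and 37.5% in multipara islets. For 27 further genes of the pathway these shares were 66.7% and 33.3%, and the share over all genes is not given here. In groups this small, a lack of overlap is stated below as a description only.

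Among the 17 sterol enzymes, 5 rose and 3 fell in virgin islets (47.1%, beside 36.5% of all genes), and 5 rose and 2 fell in multipara islets (41.2%, beside 37.6%). *Hmgcs1* encodes HMG-CoA synthase, which commits acetyl-CoA units to the pathway. Its level was 34.6 and 31.5 CPM in virgin untreated 1 and 2 and 62.5, 62.8 and 60.2 CPM in virgin S-961 1 to 3. In multipara islets it was 36.4 and 40.5 CPM untreated and 55.4, 64.7, 56.2 and 57.6 CPM with S-961. All 7 S-961 libraries lay above all 4 untreated libraries. The log2 fold change was 0.90 (SE 0.11, adjusted p = 0.000365) in virgin and 0.60 (SE 0.11, adjusted p = 0.00194) in multipara islets, and *Hmgcs1* passed under every alternative run.

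*Sqle*, the squalene epoxidase that is a rate-limiting step of the pathway, was at 80.5 and 60.5 CPM in virgin untreated and 128, 127 and 144 CPM in virgin S-961 libraries. In multipara islets its level was 63.9 and 70.3 CPM untreated and 130.0, 145, 93.4 and 131 CPM with S-961. The lowest S-961 value, that of multipara S-961 3, was still above the highest untreated value. *Sqle* rose by 0.92 on the log2 scale (SE 0.19, adjusted p = 0.00421) in virgin and 0.90 (SE 0.19, adjusted p = 0.00402) in multipara islets. The call in virgin islets was lost without virgin untreated 2, at an adjusted p of 0.0690.

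*Lss*, the lanosterol synthase that closes the sterol rings, was at 27.3 and 22.01 CPM in virgin untreated and 40.9, 42.7 and 36.6 CPM in virgin S-961 libraries. In multipara islets it was at 22.3 and 26.5 CPM untreated and 31.9, 31.2, 32.6 and 38.2 CPM with S-961. No S-961 library reached down to the untreated range in either parity group. The log2 fold change was 0.70 (SE 0.15, adjusted p = 0.00438) in virgin and 0.46 (SE 0.14, adjusted p = 0.0264) in multipara islets. These calls were lost without virgin untreated 2 (adjusted p = 0.0714) and, in multipara islets, without multipara untreated 1 (adjusted p = 0.225) and in a fit on the multipara libraries alone (adjusted p = 0.0669).

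*Hsd17b7*, a keto-reductase in the removal of methyl groups from lanosterol, had the largest rise of the set. Its level was 1.95 and 2.06 CPM in virgin untreated, 2.10 and 2.40 CPM in multipara untreated, 5.84, 6.22 and 4.37 CPM in virgin S-961 and 4.58, 4.36, 3.73 and 6.59 CPM in multipara S-961 libraries. The groups did not overlap, although this is also the sterol enzyme with the lowest counts. The log2 fold change was 1.45 (SE 0.30, adjusted p = 0.00398) in virgin and 1.10 (SE 0.29, adjusted p = 0.0129) in multipara islets, and the latter call was lost without multipara untreated 1 (adjusted p = 0.0964) or 2 (adjusted p = 0.0503).

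A pair of late enzymes passed in 1 parity group each. *Dhcr7*, a reductase at the last step to cholesterol, was at 15.95 and 12.9 CPM in virgin untreated, 24.3, 24.2 and 20.7 CPM in virgin S-961, 17.8 and 20.3 CPM in multipara untreated and 20.8, 21.97, 16.5 and 21.01 CPM in multipara S-961 libraries. It rose in virgin islets (log2 fold change 0.68, SE 0.16, adjusted p = 0.00854), where the groups did not overlap, and overlapped between the multipara groups (0.08, SE 0.15, adjusted p = 0.709). *Sc5d*, a sterol desaturase, was at 24.5 and 20.8 CPM in virgin untreated, 28.4, 27.2 and 25.3 CPM in virgin S-961, 21.4 and 23.5 CPM in multipara untreated and 28.6, 30.96, 26.2 and 27.7 CPM in multipara S-961 libraries. It rose in multipara islets (0.34, SE 0.12, adjusted p = 0.0482) and did not pass in virgin islets (0.25, SE 0.13, adjusted p = 0.144), although neither pair of groups overlapped. The call of *Dhcr7* was lost without virgin untreated 2 (adjusted p = 0.116), and that of *Sc5d* without multipara S-961 1, 2 or 4 or either multipara untreated library (adjusted p from 0.0544 to 0.278), with DESeq2's size factors (0.0572), with no filter on low counts (0.0712) and in a fit on the multipara libraries alone (0.121).

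The kinases that act on mevalonate moved the other way. *Mvk*, mevalonate kinase, was at 12.7 and 11.4 CPM in virgin untreated and 4.42, 5.07 and 4.53 CPM in virgin S-961 libraries. In multipara islets it was at 10.9 and 11.2 CPM untreated and 6.29, 7.59, 6.51 and 5.17 CPM with S-961. All 7 S-961 libraries lay below all 4 untreated libraries. *Mvk* fell by 1.37 on the log2 scale (SE 0.19, adjusted p = 0.000545) in virgin and by 0.79 (SE 0.18, adjusted p = 0.00630) in multipara islets, and it passed under every alternative run.

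*Pmvk*, phosphomevalonate kinase, was at 30.1 and 27.1 CPM in virgin untreated, 26.3 and 28.1 CPM in multipara untreated, 18.2, 17.02 and 19.7 CPM in virgin S-961 and 14.5, 24.7, 14.1 and 17.4 CPM in multipara S-961 libraries. The S-961 values were all below the untreated ones, with multipara S-961 2 the closest. *Pmvk* fell by 0.65 (SE 0.21, adjusted p = 0.0352) in virgin and by 0.62 (SE 0.20, adjusted p = 0.0325) in multipara islets. The call in virgin islets was lost when any 1 of its 5 libraries was left out (adjusted p from 0.0503 to 0.191), and that in multipara islets without multipara S-961 1, 3 or 4 or either untreated library (adjusted p from 0.0504 to 0.153) and in a fit on the multipara libraries alone (0.0952).

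*Fdps*, which makes farnesyl diphosphate, the branch point to sterols and protein prenylation, was at 84.6 and 59.9 CPM in virgin untreated, 62.98 and 69.5 CPM in multipara untreated, 38.2, 34.1 and 49.6 CPM in virgin S-961 and 41.9, 58.5, 31.4 and 39.3 CPM in multipara S-961 libraries. Neither pair of groups overlapped. It fell by 0.83 (SE 0.25, adjusted p = 0.0232) in virgin islets, a call lost without virgin S-961 1 or 2 or virgin untreated 1 (adjusted p from 0.0713 to 0.231), and was at -0.63 (SE 0.23, adjusted p = 0.0545) in multipara islets, where it passed by DESeq2 (adjusted p = 0.0343) and without multipara S-961 2 (adjusted p = 0.0137). The other 8 sterol enzymes, *Mvd*, *Idi1*, *Fdft1*, *Cyp51*, *Tm7sf2*, *Msmo1*, *Nsdhl* and *Ebp*, passed in neither parity group by edgeR with all libraries, with log2 fold changes between -0.37 and 0.35.

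**Figure D2:**
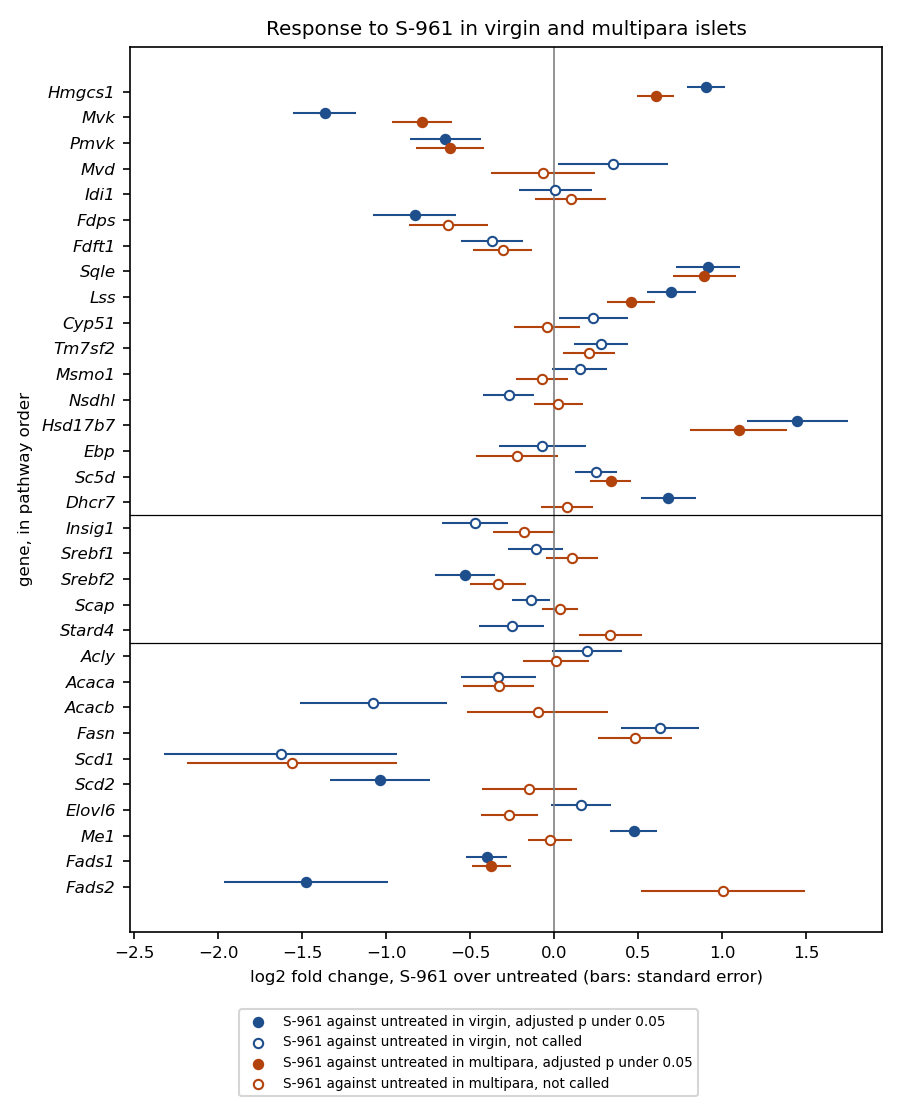
Log2 fold change of S-961 over untreated (horizontal axis, bars are standard errors) for the 32 genes in pathway order, in virgin (blue) and multipara (orange) islets, with filled points for an adjusted p under 0.05. *Hmgcs1*, *Sqle*, *Lss* and *Hsd17b7* lie to the right of 0 and *Mvk* and *Pmvk* to the left in both parity groups, while *Fads2* is at -1.48 in virgin and 1.005 in multipara islets.

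Among the 5 regulators, 1 fell with S-961 in virgin islets (20%, beside 36.5% of all genes) and 0 passed in multipara islets (0%, beside 37.6%). *Srebf2*, which encodes the factor of the cholesterol pathway, was at 118 and 110.4 CPM in virgin untreated, 114 and 102 CPM in multipara untreated, 81.5, 89.3 and 67.1 CPM in virgin S-961 and 88.2, 64.6, 95.3 and 94.7 CPM in multipara S-961 libraries. In both parity groups the S-961 values lay below the untreated ones, so the transcript of this factor was lower while *Hmgcs1* and *Sqle* were higher. *Srebf2* fell by 0.53 (SE 0.18, adjusted p = 0.0392) in virgin islets and was at -0.33 (SE 0.17, adjusted p = 0.141) in multipara islets. The call was lost without virgin S-961 1 or 3 or either virgin untreated library (adjusted p from 0.0811 to 0.191). *Insig1*, *Srebf1*, *Scap* and *Stard4* passed in neither group, with log2 fold changes from -0.47 to 0.34.

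Of these, *Scap*, the escort of the SREBPs, was the steadiest gene of the set, at 70.6 and 77.8 CPM in virgin untreated, 60.7 and 69.3 CPM in multipara untreated, 70.7, 67.5 and 64.1 CPM in virgin S-961 and 67.2, 61.9, 69.2 and 67.7 CPM in multipara S-961 libraries. *Stard4*, a cytosolic carrier of cholesterol, was at 22.3 and 16.2 CPM in virgin untreated, 18.4 and 15.6 CPM in multipara untreated, 18.5, 15.7 and 14.4 CPM in virgin S-961 and 24.7, 23.2, 20.5 and 17.4 CPM in multipara S-961 libraries. Its log2 fold change with S-961 was -0.25 (SE 0.19, adjusted p = 0.333) in virgin and 0.34 (SE 0.19, adjusted p = 0.178) in multipara islets, and the ranges overlapped in both.

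In the fatty acid branch, 1 gene rose and 3 fell with S-961 in virgin islets (40%, beside 36.5% of all genes), and 1 fell in multipara islets (10%, beside 37.6%). *Fads1* and *Fads2* encode the desaturases that make polyunsaturated fatty acids from dietary precursors, and lie on chromosome 19 (chr19:10182888-10196877 on the plus strand and chr19:10062765-10101746 on the minus strand, GENCODE M21 on GRCm38). *Fads1* was at 43.4 and 39.9 CPM in virgin untreated, 41.2 and 46.5 CPM in multipara untreated, 32.02, 33.6 and 29.1 CPM in virgin S-961 and 33.5, 32.5, 38.04 and 31.4 CPM in multipara S-961 libraries, with all S-961 libraries below all untreated ones. It fell by 0.40 (SE 0.12, adjusted p = 0.0259) in virgin and by 0.37 (SE 0.12, adjusted p = 0.0276) in multipara islets. These calls were lost without virgin S-961 1 or 3 or either virgin untreated library (adjusted p from 0.0615 to 0.178) and without multipara S-961 1, 2 or 4 or either multipara untreated library (adjusted p from 0.0547 to 0.217). They were also lost with no filter on low counts (0.0722 and 0.105), and the call in multipara islets in a fit on those libraries alone (0.0807).

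*Fads2* had fold changes of opposite sign in the parity groups, of which that in virgin islets passed. It was at 18.4 and 12.7 CPM in virgin untreated 1 and 2 and 4.54, 6.31 and 5.92 CPM in virgin S-961 1 to 3, which did not overlap. In multipara islets it was at 9.34 and 9.83 CPM untreated and 27.00, 27.6, 16.3 and 5.97 CPM in multipara S-961 1 to 4. Multipara S-961 1, 2 and 3 were above all multipara untreated libraries and multipara S-961 4 was below them. *Fads2* fell by 1.48 (SE 0.49, adjusted p = 0.0350) in virgin islets, a call lost when any 1 of the 5 libraries was left out (adjusted p from 0.0680 to 0.204), and was at 1.005 (SE 0.49, adjusted p = 0.126) in multipara islets. Without multipara S-961 4 it rose by 1.30 (SE 0.27, adjusted p = 0.00562) there.

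The stearoyl-CoA desaturases, which make monounsaturated fatty acids, were, with *Fads2* and *Acacb*, the genes of the branch whose level varied most over the libraries. Both are on chromosome 19, *Scd2* at chr19:44293674-44306864 (plus) and *Scd1* at chr19:44394455-44407879 (minus). *Scd2* was at 163 and 93.2 CPM in virgin untreated, 104 and 121 CPM in multipara untreated, 65.6, 70.5 and 50.9 CPM in virgin S-961 and 112, 96.5, 133 and 63.8 CPM in multipara S-961 libraries. The virgin groups did not overlap and the multipara groups did. It fell by 1.04 (SE 0.30, adjusted p = 0.0188) in virgin islets, which was lost without virgin S-961 3 (adjusted p = 0.0582) or virgin untreated 1 (adjusted p = 0.255), and was at -0.15 (SE 0.28, adjusted p = 0.703) in multipara islets.

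*Scd1* was at 8.91 and 4.11 CPM in virgin untreated, 1.79, 1.87 and 2.65 CPM in virgin S-961, 27.1 and 4.41 CPM in multipara untreated and 5.42, 3.03, 9.81 and 3.16 CPM in multipara S-961 libraries. Multipara untreated 1 stood above all other libraries. The log2 fold change was -1.63 (SE 0.69, adjusted p = 0.0883) in virgin and -1.56 (SE 0.62, adjusted p = 0.0707) in multipara islets. The latter became 0.28 (adjusted p = 0.795) without multipara untreated 1, and passed without multipara untreated 2 (-2.33, adjusted p = 0.0128) or multipara S-961 3 (-2.03, adjusted p = 0.0241). *Scd1* also passed by DESeq2 (adjusted p = 0.0444 in virgin and 0.0350 in multipara islets) and with no filter on low counts (0.0476 and 0.0355), and in a fit on the virgin libraries alone (0.00604). The library with the highest *Scd1* had 3.08 CPM summed over 7 adipocyte markers, and multipara S-961 3, with the next highest, had 2.68, against at most 0.513 in the other 9, with the defining marker *Adipoq* at most at 0.134 CPM, while immune markers summed to 346 CPM in multipara untreated 1 against 58.2 to 135 elsewhere. Their part in the *Scd1* values was not tested.

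*Me1*, the malic enzyme that supplies NADPH, was at 23.9 and 20.4 CPM in virgin untreated, 30.97, 30.1 and 31.3 CPM in virgin S-961, 27.9 and 25.5 CPM in multipara untreated and 22.5, 26.04, 26.4 and 30.3 CPM in multipara S-961 libraries. It rose in virgin islets (log2 fold change 0.47, SE 0.14, adjusted p = 0.0217), where the groups did not overlap, and was at -0.02 (SE 0.13, adjusted p = 0.903) in multipara islets, where they did. The call was lost without virgin S-961 1 (adjusted p = 0.0565), virgin untreated 1 (0.0523) or virgin untreated 2 (0.202). *Fasn*, the fatty acid synthase, missed the threshold in both (0.63, SE 0.23, adjusted p = 0.0528 in virgin, 0.48, SE 0.22, adjusted p = 0.107 in multipara islets), with all S-961 libraries above all untreated ones. In virgin islets it passed by DESeq2 (adjusted p = 0.0196), with DESeq2's size factors (0.0472), with no filter on low counts (0.0316), in a fit on the virgin libraries alone (0.00885) and without virgin S-961 3 (0.0265), and in multipara islets without multipara S-961 2 (0.0348). *Acly*, *Acaca*, *Acacb* and *Elovl6* passed in neither, with log2 fold changes from -1.08, for *Acacb* in virgin islets, to 0.20.

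The virgin and the multipara S-961 comparisons share no library. *Hmgcs1*, *Mvk*, *Pmvk*, *Sqle*, *Lss*, *Hsd17b7* and *Fads1* passed in both and in the same direction, which is 53.8% of the 13 calls in virgin and 87.5% of the 8 calls in multipara islets. Over all genes tested these shares were 73.8% and 71.6%. In fits on the libraries of 1 parity group alone, *Hmgcs1*, *Mvk*, *Sqle* and *Hsd17b7* passed in both. Of all genes, 51.2% then passed in virgin and 25.4% in multipara islets. In the fits on all groups, the number called moved with single libraries, and so did the share over all genes. In virgin islets 7 passed without virgin S-961 1 (27.4% of all genes, beside 36.5% with all libraries). In multipara islets 5 passed without multipara S-961 1 (30.1%, beside 37.6%) and 6 without multipara S-961 4 (35.8%). Counts without an untreated library are not given, because 1 library then remains in that group.

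To set the branches side by side, log2 CPM was averaged in each library over the 17 sterol enzymes and over the 10 fatty acid genes. The sterol mean was 4.46 ± 0.17 (SD, n = 2) in virgin untreated, 4.49 ± 0.05 (n = 2) in multipara untreated, 4.60 ± 0.04 (n = 3) in virgin S-961 and 4.54 ± 0.20 (n = 4) in multipara S-961 libraries. The fatty acid mean was 5.10 ± 0.23, 5.16 ± 0.13, 4.66 ± 0.14 and 5.02 ± 0.21 in the same order. The sterol means of the 4 groups lay closer together than the libraries of the multipara S-961 group, and the virgin S-961 group had the lowest fatty acid mean.

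The difference, sterol minus fatty acid, was -0.69 and -0.60 in virgin untreated, -0.80 and -0.54 in multipara untreated, -0.08, -0.23 and 0.12 in virgin S-961, and -0.58, -0.13, -0.996 and -0.22 in multipara S-961 libraries. All 3 virgin S-961 libraries were above both virgin untreated ones, by 0.58 between the means, while the multipara S-961 libraries spanned the untreated range, 0.18 apart in the mean. The latter value rests on single libraries, at 0.099 without multipara S-961 4, 0.067 without multipara S-961 2, 0.356 without multipara S-961 3, 0.056 without multipara untreated 1 and 0.314 without multipara untreated 2. Between the parity groups the difference of the means was -0.42 with S-961, where the groups overlapped, -0.50 without multipara S-961 4 and -0.25 without multipara S-961 3. The branch means were not tested. With the median gene of each branch in place of the mean, the difference between virgin S-961 and untreated islets was 0.14 and that between the parity groups with S-961 was 0.02, and the fatty acid genes with the largest fold changes in both comparisons were *Fads2*, *Scd1*, *Scd2* and *Acacb*.

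**Figure D3:**
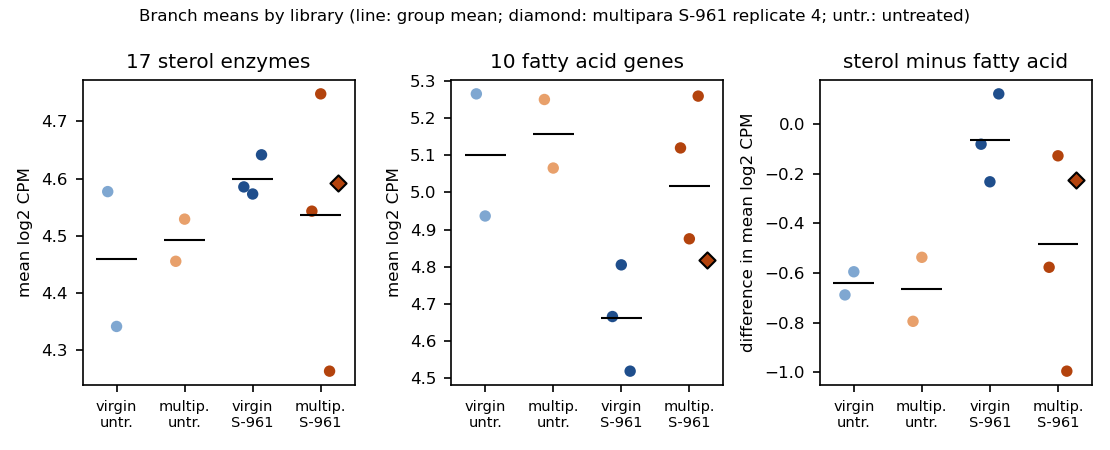
Mean log2 CPM in each library of the 17 sterol enzymes (left) and the 10 fatty acid genes (middle), and their difference (right), by group, with a line at each group mean and a diamond for multipara S-961 4. The difference is highest in the virgin S-961 libraries, from -0.23 to 0.12, and the multipara S-961 libraries spread from -0.996 to -0.13.

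By the labels as given, the multipara and virgin islets under S-961 did not differ past the adjusted threshold in any of the 32 genes, and the 7 with an unadjusted p under 0.05 were *Fads2*, *Scd1*, *Scd2*, *Acacb*, *Stard4*, *Mvk* and *Srebf1*, with higher values in multipara islets. Of 16784 genes, 0 passed an adjusted p of 0.05 by edgeR (0% of genes, 0 of the 32), while DESeq2 called 1 of the 32, *Fads2* (adjusted p = 0.00482), and 2.20% of genes. At an unadjusted p under 0.05, 7 of the 32 (21.9%) were higher and 0 lower, where 8.03% of all genes were higher and 1.68% lower. The groups did not overlap for *Mvk*, *Srebf1* and *Scd1*, which were higher, and for *Msmo1*, which was lower, or 12.5% of the set beside 8.87% of all genes. The median log2 fold change of the 32 was -0.01, beside 0.00 over all genes.

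*Fads2* had the largest difference. With 4.54, 6.31 and 5.92 CPM in virgin and 27.00, 27.6, 16.3 and 5.97 CPM in multipara S-961 libraries, the first 3 multipara libraries were all above the highest virgin library and the last lay within the virgin range. The log2 fold change was 1.80 (SE 0.47, adjusted p = 0.315). Without multipara S-961 4 it was 2.10 (SE 0.24, adjusted p = 0.00476), and then 3.16% of 16590 genes passed, where 0% passed with that library.

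*Scd2* was higher in multipara S-961 1, 2 and 3 than in any virgin S-961 library, while multipara S-961 4 was within the virgin range. The log2 fold change was 0.72 (SE 0.24, adjusted p = 0.369) and, without that library, 0.90 (SE 0.18, adjusted p = 0.0369), which passed. *Scd1* did not overlap between the groups (1.37, SE 0.45, adjusted p = 0.366), with a change of 1.56 (SE 0.43, adjusted p = 0.111) without multipara S-961 4. *Acacb* was at 1.11, 1.72 and 0.841 CPM in virgin and 3.06, 2.10, 3.45 and 1.24 CPM in multipara S-961 libraries, where only multipara S-961 4 fell in the virgin range (1.03, SE 0.42, adjusted p = 0.476, and 1.25, SE 0.36, adjusted p = 0.120 without it). The 3 multipara libraries with the higher levels of *Fads2*, *Scd2* and *Acacb* were also the 3 with 152 to 334 CPM of the proliferation markers and with 7772 to 11383 CPM of the acinar markers, both above all virgin S-961 libraries, and stromal and α cell markers were higher in all 4 multipara S-961 libraries. The part of these cells in the differences was not tested.

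Outside the fatty acid branch the differences were smaller. *Stard4* was higher in multipara S-961 1 to 3 than in the virgin libraries, again with multipara S-961 4 inside the virgin range (log2 fold change 0.42, SE 0.16, adjusted p = 0.427, and 0.52, SE 0.14, adjusted p = 0.110 without it). *Mvk* was higher in all 4 multipara than in all 3 virgin libraries (0.47, SE 0.20, adjusted p = 0.493, and 0.56, SE 0.18, adjusted p = 0.164 without multipara S-961 4). *Srebf1* was at 77.2, 75.6 and 59.3 CPM in virgin and 83.9, 82.9, 103 and 80.5 CPM in multipara S-961 libraries (0.33, SE 0.14, adjusted p = 0.510, and 0.38, SE 0.16, adjusted p = 0.277 without it). Besides *Mvk*, the sterol enzymes had log2 fold changes from -0.39, for *Mvd*, to 0.23, for *Nsdhl*. *Hmgcs1* and *Sqle*, which rose with S-961, were at -0.06 and -0.08 between the parity groups (adjusted p = 0.872 and 0.897).

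**Figure D4:**
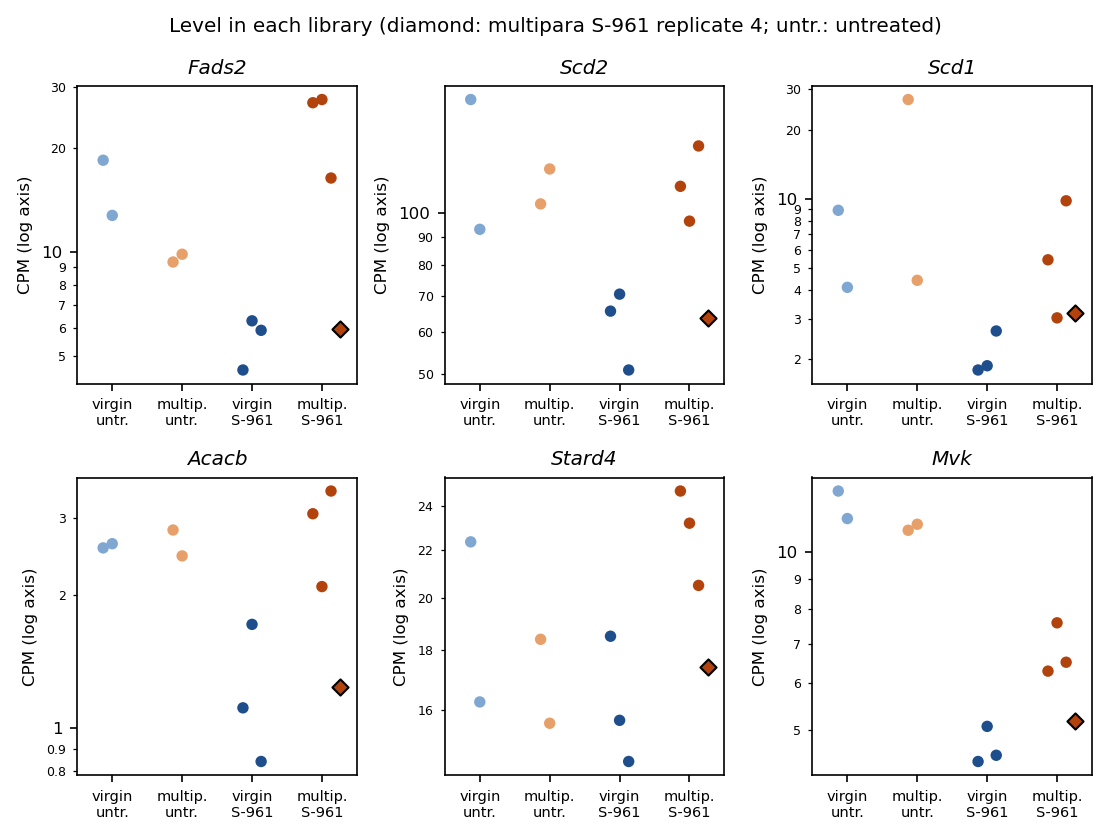
Level in each library (CPM, log axis) of *Fads2*, *Scd2*, *Scd1*, *Acacb*, *Stard4* and *Mvk* by group, with a diamond for multipara S-961 4. Multipara S-961 1 to 3 lie above every virgin S-961 library in all 6 panels, while the diamond lies within the virgin S-961 range for *Fads2*, *Scd2*, *Acacb* and *Stard4*.

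Without treatment, multipara and virgin islets gave 0 calls among the 32 genes and 0 among 15812 genes by edgeR (0%). DESeq2 called 0 of the 32 and 0.354% of all genes. At an unadjusted p under 0.05, *Dhcr7* was higher (0.41, SE 0.15, adjusted p = 0.719) and *Fads2* lower (-0.69, SE 0.21, adjusted p = 0.719), or 6.25% of the set beside 5.62% of all genes. The 2 libraries of each group did not overlap for 9 of the 32 genes, 28.1% beside 36% of all genes. *Scap* had the largest change among the regulators (-0.19, SE 0.09, adjusted p = 0.719). *Scd1* had the largest among all 32 (1.31, SE 0.93, adjusted p = 0.745), which rests on multipara untreated 1. It was -0.58 without that library and 2.07 without multipara untreated 2.

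The interaction, which asks whether the parity difference changes with S-961, gave 0 calls among the 32 and 0 among 17996 genes (0%) by edgeR. DESeq2 called 0 of the 32 and 0.45% of all genes. At an unadjusted p under 0.05 there were 3 of the 32 (9.38%, beside 6.55% of all genes), *Fads2* (2.48, SE 0.69, adjusted p = 0.553), *Dhcr7* (-0.60, SE 0.22, adjusted p = 0.706) and *Me1* (-0.50, SE 0.19, adjusted p = 0.715). *Fads2* was lower in multipara than in virgin islets without treatment and, in 3 of 4 libraries, higher with S-961. Without multipara S-961 4 its interaction was 2.78 (SE 0.37, adjusted p = 0.0206), and 0.252% of genes passed. *Stard4* had the largest interaction among the regulators (0.59, SE 0.27, adjusted p = 0.761).

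Of 27 further genes of the pathway, covering SREBP proteases, liver X receptors, sterol transport, citrate export and electron donors, 11 passed with S-961 in virgin islets (3 higher, 8 lower) and 7 in multipara islets (2 higher, 5 lower), or 40.7% and 25.9%, beside 36.5% and 37.6% of all genes. *Mbtps2*, the protease that releases SREBPs from the membrane, rose by 0.86 (SE 0.13) and 0.97 (SE 0.12), and *Gpam*, which starts glycerolipid synthesis, by 0.52 and 0.42. *Npc2*, which carries cholesterol out of lysosomes, fell by 1.45 and 1.43. *Acat2*, which makes acetoacetyl-CoA for the sterol pathway, fell by 1.09 and 0.74, *Nr1h3*, a liver X receptor, by 0.55 and 0.89, and the electron donors *Cyb5r3* and *Por* by 0.80 and 0.78 and by 0.75 and 0.49. *Soat1* rose by 0.55 and *Mbtps1*, *Lpin1* and *Mid1ip1* fell by 0.50, 0.76 and 0.79 in virgin islets. Between the parity groups and in the interaction, 0 of the 27 passed by edgeR. At an unadjusted p under 0.05 there were 0 of them with S-961 (beside 8.03% of all genes higher and 1.68% lower), *Soat1* (higher) and *Lpin1* (lower) without treatment (7.41%, beside 5.62%), and *Soat1* in the interaction (3.70%, beside 6.55%).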

How the data were processed

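The 32 genes, their classes and the lists of other pathway genes and markers were chosen with earlier results of these data known. Per library, the authors deposited estimated counts (RSEM's expected counts) of each gene without normalization. The submitters' processing notes name STAR, RSEM and the builds GRCm38 and mm10, with no versions. Libraries were stranded, and RNA was poly(A) selected. Counts were rounded to whole numbers and fitted with edgeR 4.0.16 in R 4.3.3 (TMM, filterByExpr with a minimum count of 10 and a minimum total of 15, quasi-likelihood F-test). Adjustment was by Benjamini-Hochberg over all genes tested, at a threshold of 0.05. The parity comparisons used the libraries of 1 treatment, and the S-961 comparisons and the interaction used all 11. Printed CPM values share 1 TMM normalization over the 11 libraries, and log2 CPM used a prior count of 2. Group means of levels carry no test.

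Values in every library were given for genes that passed in any comparison and for the largest fold change per class and comparison. *Acacb* and *Srebf1* were added after their values were seen. Gene positions and exon lengths came from GENCODE M21 on GRCm38. The alternatives were DESeq2 1.42.0, its size factors, no filter, a replicate block, other sets of libraries and leaving out each library. The fits were also run on simulated counts with large fold changes and the same spread for every gene. Such counts cannot show how the fits do on smaller changes or with a library unlike its group. Plots were drawn with matplotlib 3.10.9 in Python 3.11.15.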

Additional observations from a re-analysis of the deposited data

Results flagged for a closer look

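*Srebf1* in multipara S-961 3 was far from the other libraries of its group. Its log2 CPM was 6.69, against 6.33 to 6.39 in multipara S-961 1, 2 and 4. The gap to the nearest library was 0.838 of the whole range, above Dixon's critical value for 4 samples. It was the only 1 of 35 values tested in the multipara S-961 group, and chance gives about 1 such value in 20.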

How the results depend on the processing

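For multipara against virgin islets with S-961, 0 of the 32 genes passed, against 1 by DESeq2, 1 with a replicate block (*Fads2*, adjusted p = 0.0127) and 0 to 2 when 1 library was left out. The deviations of same-numbered libraries from their group means had correlations from -0.15 to 0.28 over 13 pairings. In groups of 2 libraries the deviations mirror each other. Virgin and multipara untreated 1 therefore gave the same value, 0.28, as virgin and multipara untreated 2. These few values cannot settle whether same-numbered libraries share more than a number. With the replicate block, 0 of the 32 passed in the untreated comparison (0% of all genes) and 0 in the interaction (0.189%). With S-961, 11 passed in virgin (33.2%) and 6 in multipara islets (31.3%). Under the block *Pmvk*, *Fdps*, *Srebf2* and *Fads1* did not pass and *Fasn* and *Scd1* did in virgin islets, and *Pmvk*, *Lss*, *Sc5d* and *Fads1* did not and *Stard4* and *Fads2* did in multipara islets. Leaving out 1 library gave 0 to 1 calls in the untreated comparison, 0 to 1 in the interaction, 5 to 10 with S-961 in virgin islets (13 with all libraries) and 3 to 8 in multipara islets (8 with all libraries). A fit on the multipara libraries alone gave 4 calls (25.4% of all genes passed), with *Pmvk*, *Lss*, *Sc5d* and *Fads1* not among them, and a fit on the virgin libraries alone added *Acacb*, *Fdft1*, *Fasn*, *Insig1* and *Scd1* to the calls there (51.2% of all genes). *Scd1* turned from 1.31 to -0.58 in the untreated comparison and from -1.56 to 0.28 with S-961 in multipara islets without multipara untreated 1, and was 2.07 and -2.33 without multipara untreated 2. With the median gene of each branch, the sterol minus fatty acid difference was 0.0228 between the parity groups with S-961 and 0.141 between S-961 and untreated virgin islets. The cause of these shifts was not tested. No scaling moved the median of all genes by over 0.1 on the log2 scale. Depth limits *Acacb*, *Hsd17b7* and *Scd1* most, with lowest counts of 26, 38 and 57.8.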
